A study of Arabidopsis thaliana with 29 samples.

Results

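The genes described here are 10 drought protection genes of Arabidopsis thaliana: the stress effectors RD29A (AT5G52310) and RD29B (AT5G52300), the dehydrins RAB18 (AT5G66400) and XERO2 (AT3G50970), LEA7 (AT1G52690), the galactinol synthases GolS1 (AT2G47180) and GolS2 (AT1G56600), the caleosin RD20 (AT2G33380), the BURP-domain gene RD22 (AT5G25610) and the regulator AFP1 (AT1G69260). They were picked by name, as the entries that carry the symbol, a synonym or the locus of each gene, among the 32650 entries of each of 7 comparison tables. All 10 had an entry in every table, and between 6 and 10 of them had a test, depending on the comparison. AFP1 had a second entry on the same stretch, which is given apart.

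The study asked how raising the expression of GLUTAMINE DUMPER (GDU) genes, which encode small plant membrane proteins linked to amino acid export, changes the leaf transcriptome, either soon after induction or in lines that express the gene throughout life. The induced group was Dex-GDU1 (the homozygous line 183B7, carrying GDU1 under the 6Op-LHGRn system, which dexamethasone switches on), with 3 libraries at 7 h and 3 at 25 h after the spray, and it was compared with the parental line 4c-S7, with 4 libraries at each time. Both lines received a spray of dexamethasone (100 µM, with 300 ppm of the wetting agent Silwet L-77) at 5 h after dawn and were kept under a humidity dome for 7 h, so the 2 times also differ in the hour of the day, and no unsprayed group of either line was analysed here. The unsprayed groups were the mutant gdu1-1D, which the labels class as constitutive, with 3 libraries, and 4 homozygous lines of 2 libraries each, in which the CaMV 35S promoter, active in most plant cells, drives the GDU gene of the name: 35S-GDU6, 35S-GDU5, 35S-GDU4 and 35S-GDU2. All 5 were set against the same 2 libraries of Col, the wild type. All plants were of the Columbia ecotype, 23 days old and grown on soil at 22 °C with 16 h of light and 8 h of dark, and each library held all leaves of 4 to 6 plants. The promoter that drives the dexamethasone-responsive activator is not given in the sources used here.

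The deposited tables hold 1 value per gene and group in FPKM (read fragments scaled by transcript length and library size), so the spread between libraries cannot be shown for any gene. The depth of the libraries is unknown. A gene is called changed here where the authors' Cuffdiff q-value, adjusted over all tested genes of that table, is below 0.05. Fold changes are line over control, recomputed from the 2 FPKM values, and each standard error (SE) was recovered from the deposited p-value. The smallest p-value Cuffdiff gave was 5e-05, and at that floor the SE is an upper bound, written as "at most". The labels count biological replicates without saying how plants were kept apart between pools, so the p-values measure only the spread between these libraries.

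When a plant dries out, the hormone abscisic acid accumulates and transcription factors of the ABF/AREB family bind ABRE elements in the promoters of protective genes. A second route, through DREB factors that bind DRE elements, answers cold and dehydration directly. The products guard the cell as it loses water: LEA (late embryogenesis abundant) proteins and dehydrins are highly hydrophilic proteins that shield membranes and other proteins, and galactinol synthases make galactinol, from which protective sugars of the raffinose family are built. Many of these genes also act in maturing seeds.

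The promoters are shown because the genes are textbook targets of these 2 routes. The stretches printed are the 250 bases before the annotated start of 5 of the genes in RefSeq, build TAIR10.1, each read 5′ to 3′ on the strand of its gene. Capitals mark the ABRE core (ACGTG, or CACGT where it lies on the other strand) and the DRE core (CCGAC, or GTCGG on the other strand). They lie at chr5:21240467-21240716 on the plus strand (RD29A), chr5:21236771-21237020 on the plus strand (RD29B), chr1:19619474-19619723 on the plus strand (LEA7), chr2:14146556-14146805 on the minus strand (RD20) and chr5:8916857-8917106 on the minus strand (RD22), and none overlaps another annotated gene.
RD29A: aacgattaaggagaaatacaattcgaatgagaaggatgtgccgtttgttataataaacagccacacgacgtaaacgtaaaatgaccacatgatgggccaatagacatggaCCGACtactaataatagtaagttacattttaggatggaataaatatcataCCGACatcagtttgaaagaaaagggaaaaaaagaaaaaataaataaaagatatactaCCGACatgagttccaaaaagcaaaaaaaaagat
RD29B: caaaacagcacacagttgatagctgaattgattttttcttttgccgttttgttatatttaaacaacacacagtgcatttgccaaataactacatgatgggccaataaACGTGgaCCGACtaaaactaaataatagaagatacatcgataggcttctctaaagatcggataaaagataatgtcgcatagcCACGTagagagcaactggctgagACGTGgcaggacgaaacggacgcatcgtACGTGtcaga
LEA7: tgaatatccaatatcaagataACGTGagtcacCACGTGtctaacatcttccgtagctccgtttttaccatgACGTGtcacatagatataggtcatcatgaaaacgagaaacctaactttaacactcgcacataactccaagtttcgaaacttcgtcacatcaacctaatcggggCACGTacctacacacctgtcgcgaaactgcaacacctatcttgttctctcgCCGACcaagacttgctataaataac
RD20: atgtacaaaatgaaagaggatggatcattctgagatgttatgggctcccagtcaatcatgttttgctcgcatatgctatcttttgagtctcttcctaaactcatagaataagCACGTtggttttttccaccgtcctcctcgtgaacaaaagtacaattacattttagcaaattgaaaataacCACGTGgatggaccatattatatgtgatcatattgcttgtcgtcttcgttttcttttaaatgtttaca
RD22: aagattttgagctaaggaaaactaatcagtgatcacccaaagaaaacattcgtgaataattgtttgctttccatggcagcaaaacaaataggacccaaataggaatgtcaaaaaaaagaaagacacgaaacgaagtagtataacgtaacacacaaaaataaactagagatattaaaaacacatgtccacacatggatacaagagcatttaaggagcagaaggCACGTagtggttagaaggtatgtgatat

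RD29A held 3 DRE cores and 0 ABRE cores in this window, while RD29B, its tandem neighbour, held 4 ABRE cores and 1 DRE core. LEA7 held 5 ABRE cores and 1 DRE core, RD20 held 3 ABRE cores and RD22 held 1. Among the promoters not printed, RAB18 held 3 ABRE cores, AFP1 and GolS1 held 2 each, XERO2 held 3 DRE cores and GolS2 held 1. A core with its own reverse complement over it (CACGTG) counts as 2 matches, 1 per strand, as in LEA7, GolS1 and RD20. An ABRE core was found in 7 of the 10 windows (70%), against 22.9% of all 27437 promoters of the same length, and a DRE core in 5 of 10 (50%), against 12.0% of all promoters. At least 2 ABRE cores were found in 6 of 10 windows, against 8.85% of all promoters, and at least 2 DRE cores in 2 of 10, against 1.46%. A match is a description of the letters and not a binding site. The RefSeq start lies upstream of the start of the authors' entry by up to 205 bases (RAB18), with 132 bases for RD29A and 134 for XERO2, and downstream of it by 65 bases for RD29B, and bases outside the window were not searched.

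**Figure D1:**
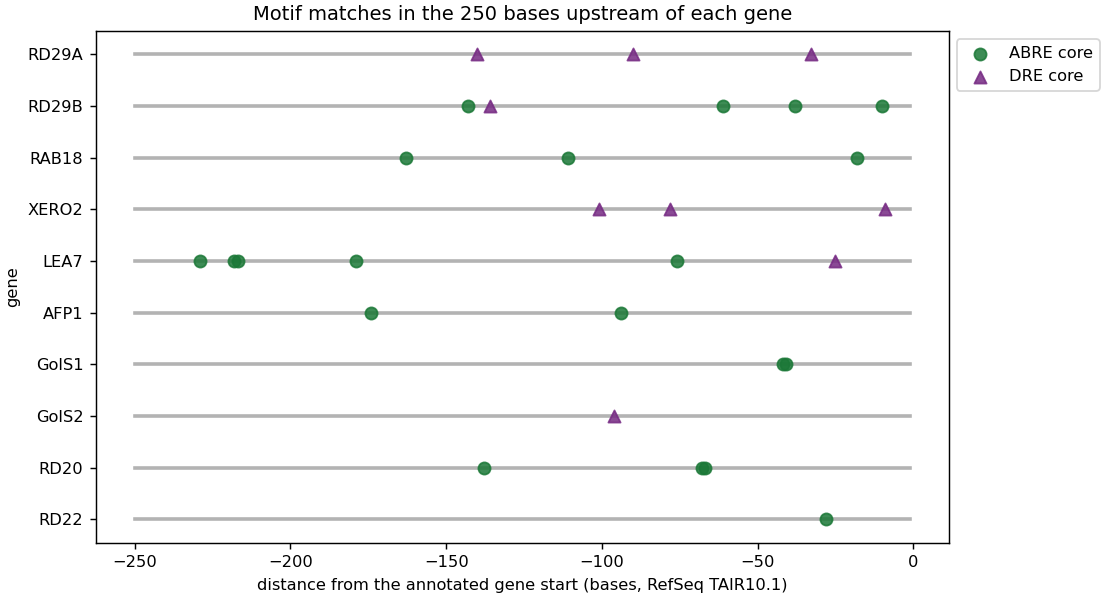
Position of ABRE cores (circles) and DRE cores (triangles) in the 250 bases upstream of the annotated start of each of the 10 genes; the x axis gives the distance from the start in bases and each row is 1 gene. ABRE cores are marked in 7 genes and DRE cores in 5, and RD29B and LEA7 hold both.

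The protection genes stood higher in Dex-GDU1 at 25 h and in 4 of the 5 unsprayed lines than in their controls, with 2 calls each at 7 h and in the libraries labelled 35S-GDU4. At 25 h after dexamethasone 10 of 10 tested genes were called higher in Dex-GDU1 than in 4c-S7, where 24.5% of all tested genes were called higher. In gdu1-1D 8 of 9 tested genes were called higher than in Col, against 23.1% of all tested genes. The count was 7 of 9 in 35S-GDU2 (14.5% of all tested genes), 9 of 10 in 35S-GDU6 (24.9%) and 8 of 9 in 35S-GDU5 (28.5%). In 35S-GDU5 the remaining gene, RD22, was called lower, as were 26.5% of all tested genes. At 7 h only RD29A and RD22 of 6 tested genes were called higher, against 8.76% of all tested genes. In the libraries labelled 35S-GDU4 0 of 7 tested genes were called higher (9.65% of all tested genes) and 2, GolS2 and RD22, were called lower (5.71%). In the 5 comparisons with 7 or more calls among the 10 genes, 3 to 5 of 5 guard cell markers were called lower, against 10.2% to 26.5% of all tested genes, and their part in these counts was not tested. The 5 comparisons with Col share its 2 libraries and are not independent of each other.

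The median log2 fold change of the 10 genes, tested or not, was -0.04 at 7 h and 3.13 at 25 h in Dex-GDU1, 2.04 in gdu1-1D, 1.72 in 35S-GDU2, -0.06 in the libraries labelled 35S-GDU4, 1.35 in 35S-GDU5 and 1.97 in 35S-GDU6. Over the tested members of the 10 alone it was 0.24 at 7 h and 3.13 at 25 h, 2.01 in gdu1-1D and 1.61 in 35S-GDU2. In the libraries labelled 35S-GDU4 it was -0.11, in 35S-GDU5 1.25 and in 35S-GDU6 1.97. The 4 genes without a test at 7 h stood under 1 FPKM in both groups. The median over all tested genes lay between -0.01 and 0.01 in each of the 7 tables. Of the 10 genes, 9 had their largest log2 fold change in Dex-GDU1 at 25 h (LEA7 was the exception), and 9 had their lowest signed log2 fold change among the 5 unsprayed lines in the libraries labelled 35S-GDU4 (RD22, lowest in 35S-GDU5, was the exception). Both rankings include values without a test or a call. With 1 FPKM added to both values, LEA7 was largest at 25 h (2.84, against 1.02 in 35S-GDU6). RD29B was then largest in 35S-GDU6 (2.07, against 1.96 at 25 h). Called genes at 2-fold or more above the control numbered 10 in Dex-GDU1 at 25 h, 7 in gdu1-1D, 6 in 35S-GDU2, 6 in 35S-GDU5 and 8 in 35S-GDU6, and 0 in Dex-GDU1 at 7 h and in the libraries labelled 35S-GDU4. The share of all tested genes that pass the same 2-fold limit was not counted, so these numbers only describe the 10 genes. RD29A, RD29B, RAB18, GolS2, RD20 and AFP1 were called higher in Dex-GDU1 at 25 h and in gdu1-1D, 35S-GDU2, 35S-GDU5 and 35S-GDU6 alike. How many of all genes were called higher in the same 5 comparisons was not counted either. Whole leaves were sampled, so a gene that is more active per cell and a larger share of cells that express it cannot be told apart.

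**Figure D2:**
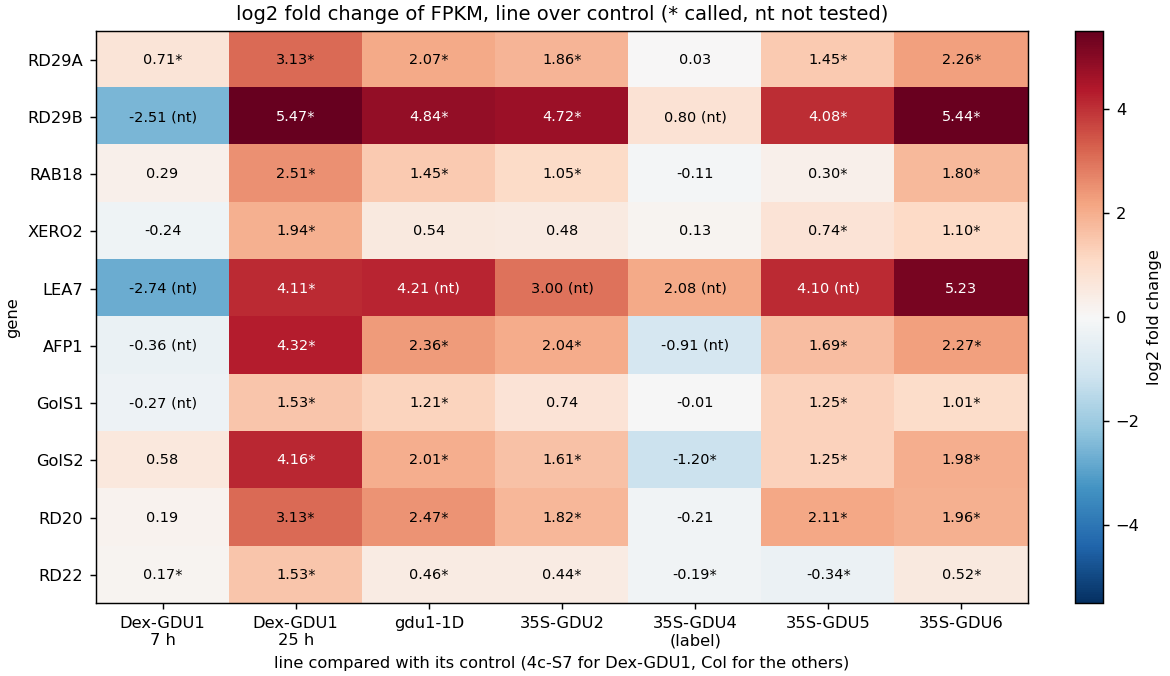
Log2 fold change of FPKM, line over control, for the 10 genes (rows) in the 7 comparisons (columns); an asterisk marks a call at the authors' q below 0.05 and nt a gene without a test. Every cell of the Dex-GDU1 25 h column is called and positive, from 1.53 to 5.47, and the 35S-GDU4 column holds 2 calls, both negative.

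The GDU gene itself checks the labels. GDU1 stood at 5281 FPKM in Dex-GDU1, against 23.3 FPKM in 4c-S7, at 7 h. At 25 h the values were 3362 FPKM in Dex-GDU1 and 6.52 FPKM in 4c-S7. In gdu1-1D it stood at 294 FPKM, against 5.19 FPKM in Col. GDU2 stood at 4706 against 2.72 FPKM in 35S-GDU2, GDU5 at 3198 against 2.86 FPKM in 35S-GDU5, and GDU6 at 30183 against 9.14 FPKM in 35S-GDU6, the line first and Col after it. All these were called higher. GDU4, in contrast, stood at 10.9 FPKM in the libraries labelled 35S-GDU4 and at 8.72 FPKM in Col and was not called (Cuffdiff q 0.949, the authors' deposited table), so values of those libraries are given for the label only.

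RD29A and RD29B are neighbours on chromosome 5, in the same direction and 1185 bases apart in the TAIR10.1 annotation, and both encode hydrophilic proteins widely used as reporters of drought, cold and abscisic acid. In the authors' tables, built on TAIR10, the RD29A entry spans chr5:21240849-21243613 and the RD29B entry chr5:21236956-21239529. RD29A stood at 70.1 FPKM in Dex-GDU1 at 25 h, against 8.01 FPKM in 4c-S7, a log2 fold change of 3.13 (SE at most 0.77). At 7 h it had the larger of the 2 called changes, at 46.2 FPKM in Dex-GDU1 and 28.2 FPKM in 4c-S7 (log2 fold change 0.71, SE at most 0.18). Among the unsprayed lines RD29A stood at 23.6 FPKM in gdu1-1D, 19.7 in 35S-GDU2, 15.9 in 35S-GDU5 and 25.2 in 35S-GDU6, against Col values between 5.25 and 5.82 FPKM in the 5 tables. These 4 lines were all called and spanned 2.73-fold to 4.80-fold, while the libraries labelled 35S-GDU4 stood at 5.37 FPKM against 5.26 FPKM in Col.

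RD29B had the largest called fold of the 10 genes in every comparison in which it was called, from a control level close to 0. In Dex-GDU1 at 25 h it stood at 3.18 FPKM, against 0.0716 FPKM in 4c-S7, which is 44.4-fold (log2 fold change 5.47, SE at most 1.35). The lines gdu1-1D, 35S-GDU2, 35S-GDU5 and 35S-GDU6 had 2.50, 2.23, 1.53 and 3.55 FPKM, against 0.0817 to 0.0907 FPKM in Col, or 28.6-fold, 26.3-fold, 16.9-fold and 43.5-fold. Such folds lean on a control level under 0.1 FPKM: with 1 FPKM added to both values, the log2 fold change was 1.96 in Dex-GDU1 at 25 h and 1.22 to 2.07 in the 4 lines. At 7 h the gene stood at 0.0183 FPKM in Dex-GDU1 and 0.104 FPKM in 4c-S7, and in the libraries labelled 35S-GDU4 the level was 0.142 FPKM, against 0.0819 FPKM in Col, and it had no test in either. RD29A, already present in the controls, stood above RD29B on the per-length FPKM scale in all 14 group values compared, and RD29B had the larger fold where both were called.

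RAB18 (chr5:26518277-26519242) is a dehydrin best known for its response to abscisic acid. It stood at 46.6 FPKM in Dex-GDU1 at 25 h, against 8.18 FPKM in 4c-S7 (log2 fold change 2.51, SE at most 0.62). At 7 h it stood at 5.07 FPKM in Dex-GDU1 and 4.16 FPKM in 4c-S7 and was not called (Cuffdiff q 0.198 in the authors' deposited table). The unsprayed lines spread widely for this gene, with 30.1 FPKM in gdu1-1D, 22.1 in 35S-GDU2, 14.1 in 35S-GDU5 and 35.9 in 35S-GDU6, against 10.3 to 11.4 FPKM in Col. All 4 were called, from 1.23-fold in 35S-GDU5 to 3.49-fold in 35S-GDU6. The libraries labelled 35S-GDU4 stood at 9.58 FPKM, against 10.3 FPKM in Col.

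XERO2 (chr3:18940777-18941554), also called LTI30, is a dehydrin of cold and drought that binds membranes. Its clearest rise was in Dex-GDU1 at 25 h, at 9.42 FPKM against 2.45 FPKM in 4c-S7 (log2 fold change 1.94, SE at most 0.48), and at 7 h it stood at 3.48 FPKM against 4.12 FPKM without a call. In the unsprayed lines its level stayed low, at 2.1 FPKM in gdu1-1D, 1.96 in 35S-GDU2, 1.49 in the libraries labelled 35S-GDU4, 2.49 in 35S-GDU5 and 2.89 in 35S-GDU6, against 1.35 to 1.50 FPKM in Col. Only 35S-GDU5 (1.66-fold, SE of the log2 value 0.28) and 35S-GDU6 (2.14-fold, SE 0.29) were called. The q-values of the authors' deposited tables were 0.0707 in gdu1-1D and 0.303 in 35S-GDU2, and the call in 35S-GDU5, at a q of 0.0169, did not pass a threshold of 0.01.

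LEA7 encodes an LEA protein that is disordered in water and folds as the cell dries. Its entry shares the stretch chr1:19619745-19623461 with AT1G52695, which overlaps it by 297 bases on the opposite strand in TAIR10.1. The strand setting of the authors' counting is not stated, so reads of the overlap cannot be told apart. LEA7 rose to 10.6 FPKM in Dex-GDU1 at 25 h, against 0.611 FPKM in 4c-S7 (log2 fold change 4.11, SE at most 1.01). Elsewhere it stayed near the lower end of the scale, with 0.571 FPKM in gdu1-1D, 0.240 in 35S-GDU2, 0.122 in the libraries labelled 35S-GDU4, 0.550 in 35S-GDU5 and 1.09 in 35S-GDU6, against 0.0289 to 0.0321 FPKM in Col. Of these 5 lines only 35S-GDU6 had a test, for which the authors' deposited table gives a q of 0.310. At 7 h LEA7 stood at 0.0155 FPKM in Dex-GDU1 and 0.104 FPKM in 4c-S7, without a test. LEA7 was called in 1 comparison only, the fewest of the 10 genes, although its line value lay above its control value in 6 of 7.

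**Figure D3:**
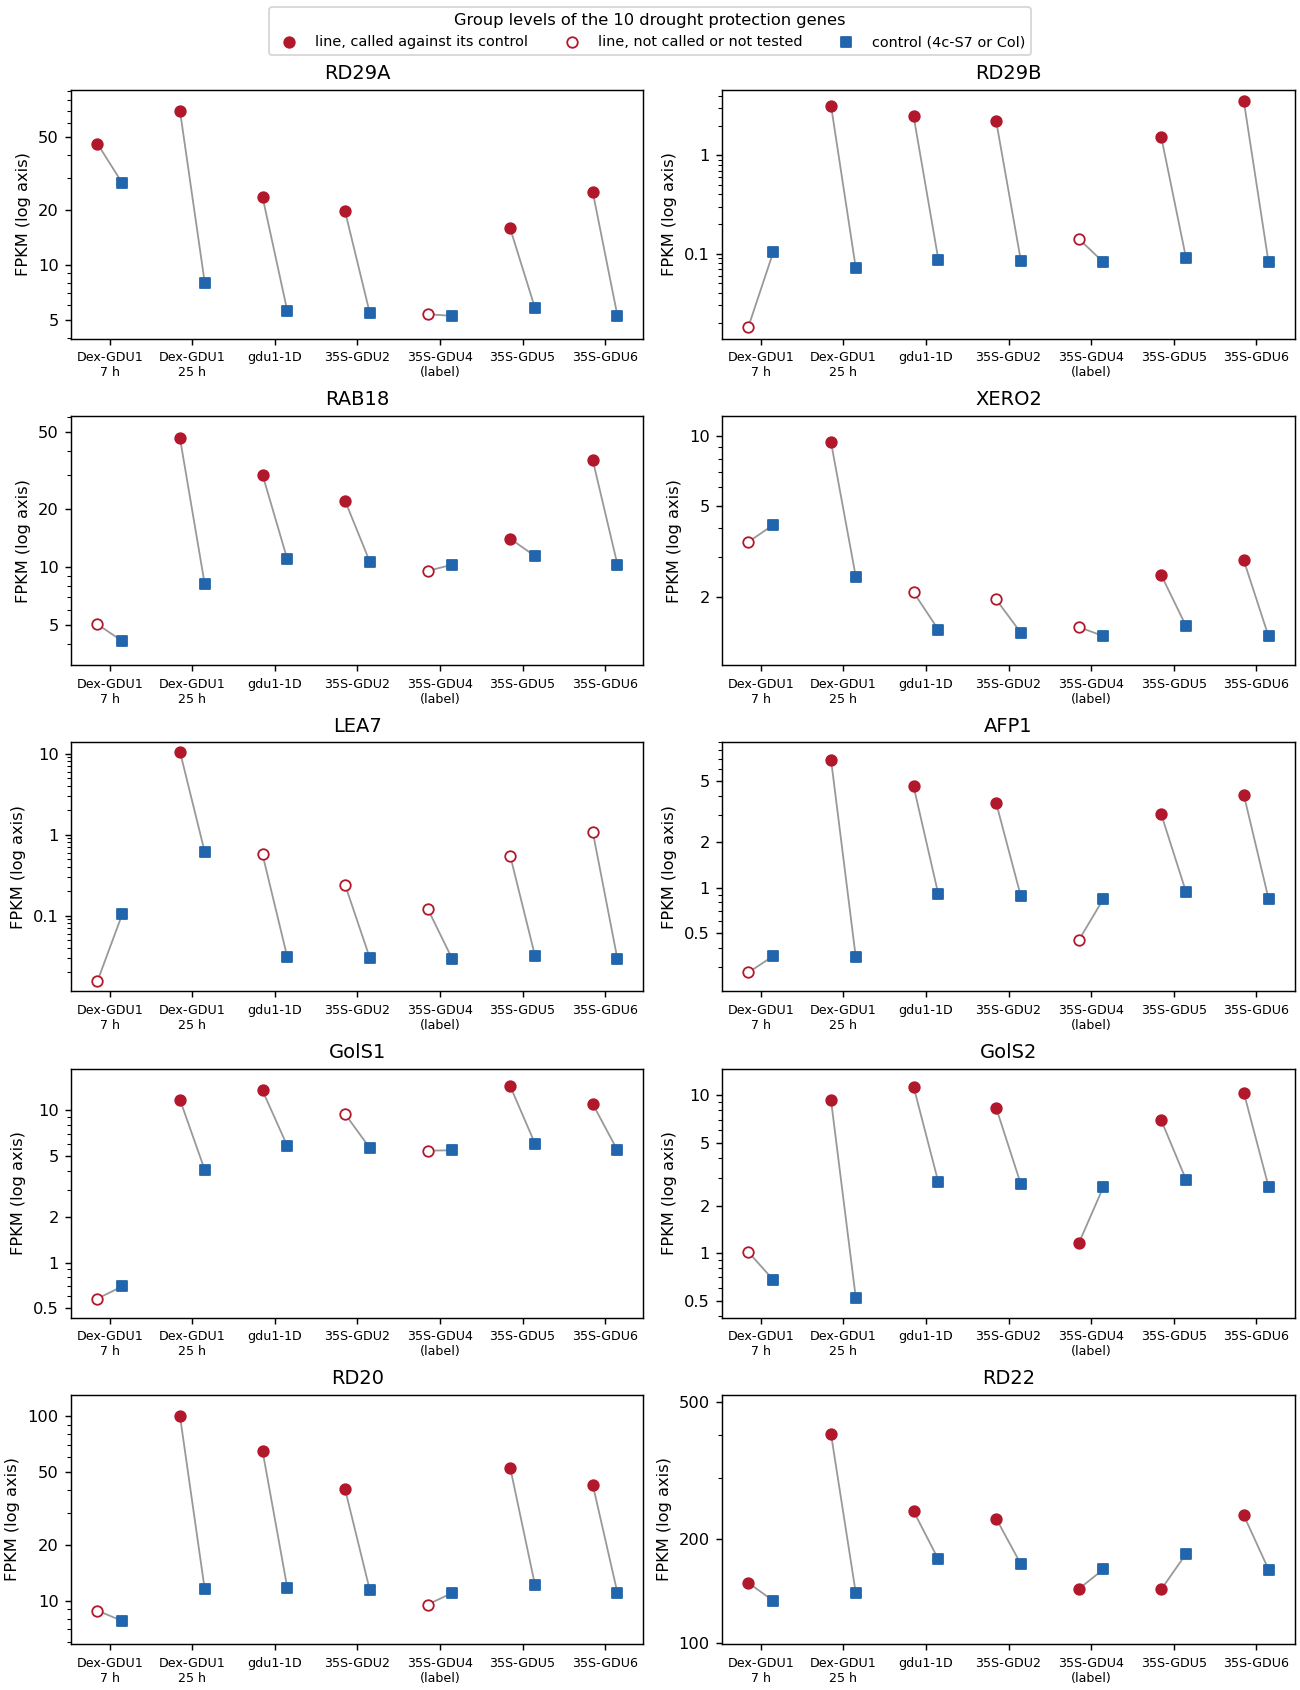
FPKM (log axis) of each of the 10 genes in the 7 comparisons, with the line as a red circle, filled where it was called, and its control (4c-S7 for Dex-GDU1, Col for the others) as a blue square to its right; each point is the authors' single value for the group. In the Dex-GDU1 25 h position the filled circle lies above the square for all 10 genes, while in the 35S-GDU4 position the only filled circles, for GolS2 and RD22, lie below it.

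GolS1 and GolS2 are the galactinol synthases that respond to drought and salt, catalysing the first committed step towards raffinose. GolS2 (chr1:21207537-21209596) had the wider range. It stood at 9.26 FPKM in Dex-GDU1 at 25 h, against 0.519 FPKM in 4c-S7, which is 17.8-fold (log2 fold change 4.16, SE at most 1.02), and at 1.01 FPKM against 0.676 FPKM at 7 h without a call (Cuffdiff q 0.0975 in the authors' deposited table). In the unsprayed lines it stood at 11.3 FPKM in gdu1-1D, 8.31 in 35S-GDU2, 6.93 in 35S-GDU5 and 10.4 in 35S-GDU6, against 2.63 to 2.92 FPKM in Col, between 2.38-fold and 4.03-fold and called in all 4. The libraries labelled 35S-GDU4 went the other way: GolS2 fell to 1.15 FPKM there, against 2.63 FPKM in Col, a log2 fold change of -1.20 (SE at most 0.29).

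GolS1 shares its stretch (chr2:19366623-19370441) with ARF1A1C, whose gene overlaps it by 43 bases on the opposite strand. At 25 h it stood at 11.7 FPKM in Dex-GDU1, against 4.05 FPKM in 4c-S7 (log2 fold change 1.53, SE at most 0.38). Its values in the unsprayed lines were 13.4 FPKM in gdu1-1D, 9.41 in 35S-GDU2, 5.41 in the libraries labelled 35S-GDU4, 14.3 in 35S-GDU5 and 11.0 in 35S-GDU6, against 5.44 to 6.03 FPKM in Col. It was called in gdu1-1D (2.31-fold), 35S-GDU5 (2.38-fold) and 35S-GDU6 (2.01-fold) and not in 35S-GDU2 (1.67-fold, Cuffdiff q 0.159 in the authors' deposited table). At 7 h both groups were under 1 FPKM, with 0.580 FPKM in Dex-GDU1 and 0.697 FPKM in 4c-S7, and no test was made. On the per-length FPKM scale GolS1 stood above GolS2 in Dex-GDU1 at 25 h and in the unsprayed lines, as in their controls, while GolS2 had the larger fold in Dex-GDU1 at 25 h, gdu1-1D, 35S-GDU2 and 35S-GDU6 and both stood at 2.38-fold in 35S-GDU5.

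RD20 (chr2:14144831-14146471), also called caleosin 3, is a calcium-binding protein of oil bodies with peroxygenase activity that is induced by drought and abscisic acid. It reached 101 FPKM in Dex-GDU1 at 25 h, against 11.5 FPKM in 4c-S7 (8.73-fold; log2 fold change 3.13, SE at most 0.77). At 7 h the values were 8.83 FPKM in Dex-GDU1 and 7.76 FPKM in 4c-S7, without a call. Among unsprayed lines it stood at 65.1 FPKM in gdu1-1D, 40.3 in 35S-GDU2, 52.8 in 35S-GDU5 and 42.7 in 35S-GDU6, against 11.0 to 12.2 FPKM in Col. The 4 lines lay between 3.53-fold and 5.54-fold and were called, and RD20 had the largest called fold after RD29B in gdu1-1D and 35S-GDU5. The libraries labelled 35S-GDU4 stood at 9.53 FPKM against 11.0 FPKM in Col and were not called (Cuffdiff q 0.233 in the authors' deposited table).

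RD22 (chr5:8914233-8916801) carries a BURP domain, found in plant cell wall proteins, and is a classic marker of the slow abscisic acid response that passes through MYC2 and MYB2. It was the most abundant of the 10 genes in every group, and where it rose at 25 h and in the unsprayed lines its fold was the smallest of the 10. In Dex-GDU1 it stood at 402 FPKM at 25 h, against 140 FPKM in 4c-S7 (2.88-fold; log2 fold change 1.53, SE at most 0.38), and at 149 FPKM against 133 FPKM at 7 h (log2 fold change 0.17, SE 0.06). It rose to 241 FPKM in gdu1-1D, 229 in 35S-GDU2 and 234 in 35S-GDU6, against 163 to 181 FPKM in Col. It fell to 143 FPKM in 35S-GDU5, against 181 FPKM in Col (log2 fold change -0.34, SE at most 0.08), and to 143 FPKM in the libraries labelled 35S-GDU4, against 164 FPKM in Col (log2 fold change -0.19, SE 0.07). RD22 was the only gene called in all 7 comparisons, 5 times higher and 2 times lower. The calls at 7 h and in the libraries labelled 35S-GDU4, at q-values of 0.0158 and 0.0349 in the authors' deposited tables, did not pass a threshold of 0.01.

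AFP1 is the one regulator of the 10: it binds the transcription factor ABI5 and dampens the abscisic acid response. The stretch chr1:26038921-26042888 holds 2 entries named AFP1 and the gene RPK1, which overlaps AFP1 by 32 bases on the opposite strand. The values given are those of the entry listed in the run of genes of AFP1's own strand. In Dex-GDU1 at 25 h it stood at 6.93 FPKM, against 0.348 FPKM in 4c-S7, which is 19.9-fold (log2 fold change 4.32, SE at most 1.06). The unsprayed lines gdu1-1D, 35S-GDU2, 35S-GDU5 and 35S-GDU6 stood at 4.63, 3.60, 3.03 and 4.08 FPKM, against 0.845 to 0.937 FPKM in Col, between 3.24-fold and 5.12-fold and called in all 4. At 7 h the gene stood at 0.277 FPKM against 0.355 FPKM in 4c-S7, and in the libraries labelled 35S-GDU4 the level was 0.450 FPKM, against 0.846 FPKM in Col, and neither had a test. The second AFP1 entry was called in no table: at 25 h it stood at 1.45 FPKM in Dex-GDU1 and 0.307 FPKM in 4c-S7, and the authors' deposited table gives a q of 0.0882.

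The change of these genes differed between the times after the spray. For the 6 genes tested at both times, the log2 fold change at 25 h minus that at 7 h was 2.42 for RD29A (SE at most 0.79, adjusted p 0.0198), 2.22 for RAB18 (SE at most 0.64, adjusted p 0.0068), 2.18 for XERO2 (SE at most 0.51, adjusted p 0.00074), 3.57 for GolS2 (SE at most 1.05, adjusted p 0.00885), 2.94 for RD20 (SE at most 0.78, adjusted p 0.00331) and 1.36 for RD22 (SE at most 0.38, adjusted p 0.00568). The test compares the pair of fold changes as a normal deviate with SEs from the Cuffdiff p-values, adjusted over the 17113 genes tested at both times. All 6 differences were called as more positive at 25 h, as were 10.4% of all genes tested. RD29B, LEA7, AFP1 and GolS1 had no test at 7 h, when all 4 stood under 1 FPKM in both groups.

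**Figure D4:**
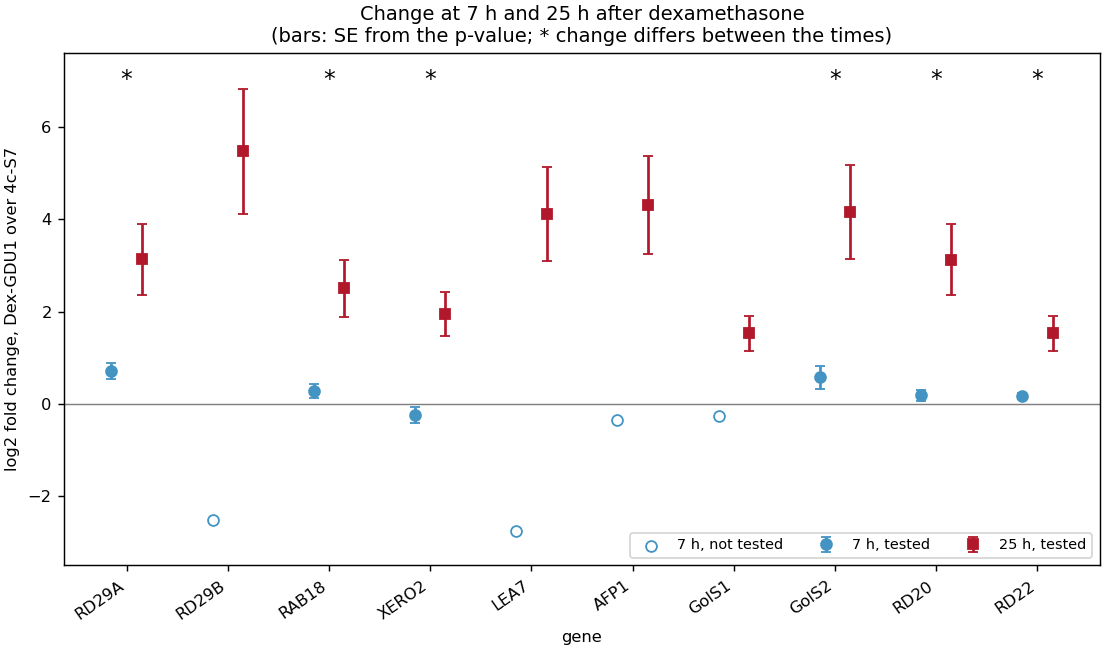
Log2 fold change, Dex-GDU1 over 4c-S7, of each gene at 7 h (blue circles, open where not tested) and at 25 h (red squares); bars are the SE recovered from the authors' p-value and an asterisk marks a difference between the times at an adjusted p below 0.05. The 25 h value lies above the 7 h value for all 10 genes, and the 6 genes tested at both times carry the asterisk.

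The control line itself differed between the times for some of the genes, which is given as a description because the tables were normalised separately. RD29A stood at 28.2 FPKM at 7 h and 8.01 FPKM at 25 h in 4c-S7, and XERO2 at 4.12 and 2.45 FPKM. GolS1 moved the other way, with 0.697 FPKM at 7 h and 4.05 FPKM at 25 h in 4c-S7, as did LEA7 (0.104 and 0.611 FPKM) and RAB18 (4.16 and 8.18 FPKM). RD22 stood at 133 and 140 FPKM and AFP1 at 0.355 and 0.348 FPKM. Over 16096 genes the median ratio of the 25 h to the 7 h value was 0.850 in 4c-S7 and 0.842 in Dex-GDU1. In the induced line, RD29A stood at 46.2 FPKM at 7 h and 70.1 FPKM at 25 h, so its larger fold at 25 h comes with a higher Dex-GDU1 value and a lower 4c-S7 value together. For GolS2 most of the difference lay in the Dex-GDU1 value (1.01 and 9.26 FPKM), with 0.676 and 0.519 FPKM in 4c-S7. RD20 stood at 8.83 and 101 FPKM in Dex-GDU1, and its 4c-S7 value was also higher at 25 h (7.76 and 11.5 FPKM), which narrows its fold there. The share of the hour of the day, the spray and the dome in these levels was not tested.

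Induced and lasting over-expression of GDU1 were compared as the change of Dex-GDU1 at 25 h minus the change of gdu1-1D. All 9 genes tested in both had a positive difference, from 0.32 (GolS1) to 2.15 (GolS2) on the log2 scale, but 0 of 9 were called at an adjusted p below 0.05, where 6.60% of all 17328 genes tested were called more positive. At an unadjusted p below 0.05 there were 2, RD22 (difference 1.06, 95% interval 0.29 to 1.84, adjusted p 0.0556) and XERO2 (difference 1.40, 95% interval 0.34 to 2.46, adjusted p 0.0695). For RD29B the interval reached from -2.90 to 4.16 and for GolS2 from -0.09 to 4.38, so differences in size between the 2 GDU1 lines are poorly bounded. The SE of each of the 9 differences is an upper bound, because all 9 genes had the smallest p-value (Cuffdiff) at 25 h. With the SE taken from the deposited test statistic, 3 differences (RD29A, GolS2 and RD22) were called.

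In unsprayed Col leaves the 10 genes spanned a wide range on the per-length FPKM scale. RD22 led, with a median of 169 FPKM over the 5 tables, followed by RD20 at 11.4 FPKM and RAB18 at 10.7 FPKM. GolS1 (5.63 FPKM) and RD29A (5.44 FPKM) came next, then GolS2 (2.72), XERO2 (1.40) and AFP1 (0.875), with RD29B (0.0847) and LEA7 (0.0300) at the lower end. The 5 tables hold the same Col libraries and differ by nearly 1 factor per table, between 0.935 and 1.04 relative to the gdu1-1D table, so their spread is no biological error. RD20 and RAB18, like GolS1 and RD29A, lie so close that their order cannot be told without values per library. In Dex-GDU1 at 25 h RD20, at 101 FPKM, stood above RD29A, at 70.1 FPKM, and RAB18, at 46.6 FPKM.

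Other members of the same families moved along in part, and the lists of relatives were drawn up with earlier results of these data known. The counts below are to be read against the shares of all tested genes called higher, given above, and called lower, which were 7.19% at 7 h and 21.6% at 25 h in Dex-GDU1, 21.4% in gdu1-1D, 10.2% in 35S-GDU2, 5.71% in the libraries labelled 35S-GDU4, 26.5% in 35S-GDU5 and 23.9% in 35S-GDU6. Among 8 other dehydrins, 5 were tested at 25 h and all 5 were called higher (24.5% of all tested genes), with a median log2 fold change of 1.02 over the tested members. They included ERD10 (144 FPKM in Dex-GDU1 against 41.5 FPKM in 4c-S7), COR47 (171 against 56.5 FPKM) and ERD14 (399 against 197 FPKM), acidic dehydrins of cold and drought. The counts called higher were 3 of 5 at 7 h (8.76% of all tested genes), 4 of 5 in gdu1-1D (23.1%), 35S-GDU2 (14.5%) and 35S-GDU5 (28.5%), 3 of 5 in the libraries labelled 35S-GDU4 (9.65%) and 5 of 5 in 35S-GDU6 (24.9%). HIRD11, a small histidine-rich dehydrin and the most abundant, was called lower in 35S-GDU2 (1134 FPKM against 1359 FPKM in Col) and 35S-GDU5 (1166 against 1454 FPKM). The entry named LEA joins AT2G21490 with a neighbouring gene, and its calls may belong to either.

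Of 28 other LEA genes 11 were tested at 25 h, and the 17 without a test stood at 0.659 FPKM or less in both groups. Of the 11, 9 were called higher (24.5% of all tested genes) and 0 lower (21.6%), with a median log2 fold change of 1.59. AT3G17520 had the largest change, at 1.88 FPKM in Dex-GDU1 against 0.214 FPKM in 4c-S7. LEA4-5 stood at 7.58 FPKM in Dex-GDU1 at 25 h against 0.868 FPKM in 4c-S7, and COR15A and COR15B, which protect chloroplast membranes in the cold, stood at 472 against 71.9 FPKM and at 83.9 against 17.9 FPKM. SAG21, a mitochondrial LEA protein of senescence and oxidative stress, rose to 306 FPKM in 35S-GDU5, against 20.0 FPKM in Col, which is 15.3-fold and more than in any other line. DI21 stood at 30.8 FPKM in 35S-GDU5 against 7.66 FPKM in Col, and LEA14 and AT2G23120 were among the called genes of 7 h (1.29-fold and 1.34-fold). The counts called higher and lower were 5 and 0 of 9 at 7 h (all tested genes 8.76% and 7.19%), 9 and 0 of 10 in gdu1-1D (23.1% and 21.4%), 8 and 0 of 10 in 35S-GDU2 (14.5% and 10.2%), 5 and 1 of 9 in the libraries labelled 35S-GDU4 (9.65% and 5.71%), 8 and 1 of 10 in 35S-GDU5 (28.5% and 26.5%) and 7 and 2 of 10 in 35S-GDU6 (24.9% and 23.9%). The seed LEA genes EM1 and EM6 had no test in any table. COR47, ERD10, COR15B and SAG21 were called higher in the libraries labelled 35S-GDU4, where none of the 10 genes was.

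**Figure D5:**
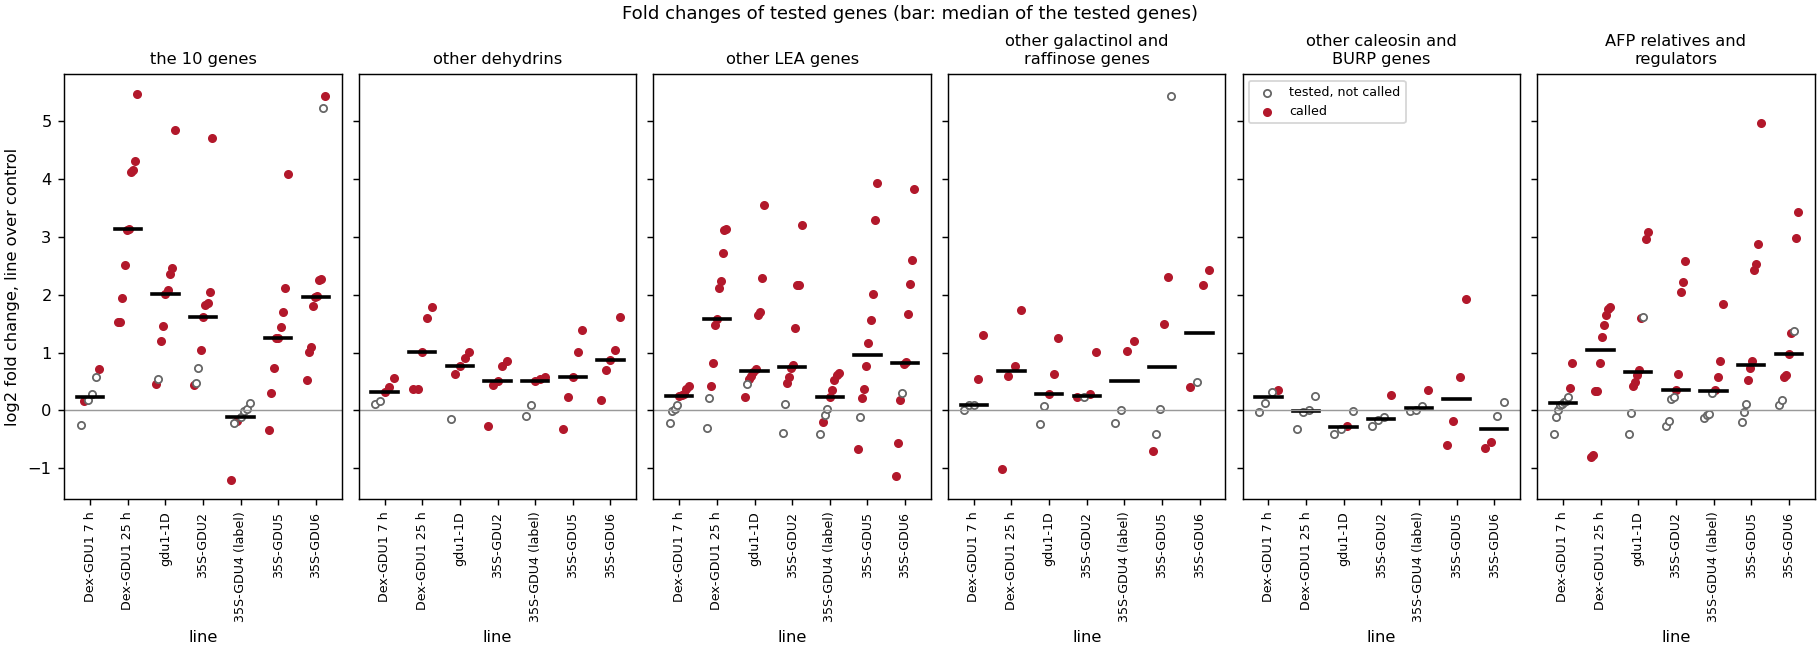
Log2 fold change, line over control, of each tested gene in the 7 comparisons, for the 10 genes (left) and 5 lists of relatives; filled points were called at the authors' q below 0.05 and the bar is the median of the tested genes. The 10 genes have a median of 3.13 in Dex-GDU1 at 25 h, against 1.02 for the other dehydrins, 1.59 for the other LEA genes and -0.01 for the caleosin and BURP genes.

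In the galactinol and raffinose list, only 4 to 6 of 11 genes were tested per comparison. RS5, a raffinose synthase, rose to 15.0 FPKM in Dex-GDU1 at 25 h, against 8.84 FPKM in 4c-S7, and GolS3, the cold-induced galactinol synthase, to 2.09 FPKM against 0.629 FPKM. GolS3 was also called higher at 7 h (1.10 FPKM in Dex-GDU1 against 0.449 FPKM in 4c-S7). In 35S-GDU5 it was called lower (0.870 FPKM against 1.41 FPKM in Col). SIP2, which cleaves galactose from raffinose, rose in Dex-GDU1 at 25 h (1.51-fold), in gdu1-1D (2.40-fold), in 35S-GDU2 (2.02-fold), in the libraries labelled 35S-GDU4 (2.03-fold), in 35S-GDU6 (4.52-fold) and in 35S-GDU5 (4.96-fold). DIN10, a dark-inducible gene of the same enzyme family, fell to 36.1 FPKM in Dex-GDU1 at 25 h, against 72.5 FPKM in 4c-S7, and rose in all 5 unsprayed lines, up to 141 FPKM in 35S-GDU6 against 26.2 FPKM in Col. The list as a whole had 3 genes called higher and 1 lower of 4 tested at 25 h (all tested genes 24.5% and 21.6%). At 7 h the counts were 2 and 0 of 5 (8.76% and 7.19%). They were 3 and 0 of 5 in gdu1-1D (23.1% and 21.4%) and 3 and 0 of 4 in 35S-GDU2 (14.5% and 10.2%). The libraries labelled 35S-GDU4 had 2 and 0 of 4 (9.65% and 5.71%). In 35S-GDU5 the counts were 2 and 1 of 6 (28.5% and 26.5%), and in 35S-GDU6 3 and 0 of 4 (24.9% and 23.9%). The relatives of RD20 and RD22, 7 other caleosin and BURP genes, showed 0 Cuffdiff calls among 4 tested at 25 h, and CLO4, the other leaf caleosin, stood at 16.5 FPKM in Dex-GDU1 and 16.4 FPKM in 4c-S7. In the other comparisons they had 1 higher and 0 lower of 4 (7 h), 0 and 1 (gdu1-1D), 1 and 0 (35S-GDU2), 1 and 0 (the libraries labelled 35S-GDU4), 2 and 2 (35S-GDU5) and 0 and 2 (35S-GDU6). With 4 genes tested each time, these counts are too small to be set apart from the same shares of all tested genes. USPL1 and PG1 were called higher in 35S-GDU5 and lower in 35S-GDU6: USPL1 stood at 6.61 FPKM in 35S-GDU5 against 1.74 FPKM in Col, and at 0.999 FPKM in 35S-GDU6 against 1.57 FPKM in Col. CLO4 fell to 11.9 FPKM in 35S-GDU5, against 18.0 FPKM in Col, and fell in gdu1-1D too. PG2 was called lower in 35S-GDU5, and higher in 35S-GDU2, at 7 h in Dex-GDU1 and in the libraries labelled 35S-GDU4.

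Among 12 AFP relatives and regulators, 10 had a test at 25 h, with 8 called higher (24.5% of all tested genes) and 2 lower (21.6%). AFP3 rose to 16.3 FPKM in Dex-GDU1, against 5.18 FPKM in 4c-S7, while its relatives AFP2 (2.67 against 4.66 FPKM) and TMAC2 (2.03 against 3.45 FPKM) fell. DREB2A, a DRE-binding factor of dehydration, rose to 2.36 FPKM in Dex-GDU1, against 0.703 FPKM in 4c-S7. MYB2 and MYC2, the activators named with RD22, rose 3.47-fold and 2.80-fold at 25 h, and MYB2 rose 31.4-fold in 35S-GDU5 (5.92 FPKM against 0.188 FPKM in Col). RD22 fell in 35S-GDU5 and in the libraries labelled 35S-GDU4, where MYC2 rose 5.78-fold and 3.58-fold. MYC2 was also called higher where RD22 was called higher: 7.85-fold in 35S-GDU6, 4.12-fold in 35S-GDU2, 3.04-fold in gdu1-1D, and 1.77-fold at 7 h, besides 25 h. The relation between the 2 genes was not tested. The genes called higher were 2 of 10 at 7 h (8.76% of all tested genes), 7 of 10 in gdu1-1D (23.1%), 5 of 9 in 35S-GDU2 (14.5%), 4 of 8 in the libraries labelled 35S-GDU4 (9.65%), 7 of 10 in 35S-GDU5 (28.5%) and 6 of 9 in 35S-GDU6 (24.9%), and 0 were called lower in these. The ABRE-binding factors ABF1 and ABF4 rose 2.52-fold and 1.97-fold in 35S-GDU6, and ABF3 rose 1.62-fold in gdu1-1D. ABF1 was also called higher in 35S-GDU2 (1.54-fold). In the libraries labelled 35S-GDU4, ABF4 (1.28-fold) and TMAC2 (1.80-fold) were called higher. AFP3 rose 10.8-fold in 35S-GDU6, 7.84-fold in gdu1-1D, 7.37-fold in 35S-GDU5, 6.02-fold in 35S-GDU2 and 1.49-fold in the libraries labelled 35S-GDU4.

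Outside the 10 genes, the pattern nearest to the median fold change of those of them that were tested, over the 7 comparisons, was that of COR15A, with a mean absolute difference of 0.28 on the log2 scale among the 6045 genes compared. Only genes with a symbol, in entries of 1 gene, were compared. COR15A was followed by CORI3 (0.38), KIN2 (0.38), ATSBT5.2 (0.39) and ZW9 (0.41). COR15A had log2 fold changes of 0.27 at 7 h, 2.71 at 25 h, 1.70 in gdu1-1D, 2.17 in 35S-GDU2, 0.23 in the libraries labelled 35S-GDU4, 1.16 in 35S-GDU5 and 2.19 in 35S-GDU6. KIN2, the cold-induced gene also called COR6.6, had the highest level of the 5, at 845 FPKM in Dex-GDU1 and 573 FPKM in 4c-S7 at 7 h. These likenesses are descriptions over 7 comparisons, 5 of which share the Col libraries.

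The leaf mesophyll genes CA1, LHCB2.1 and PSBO1 were abundant in every group, while RBCS1A was left without a test. Of these 3, all were called lower in gdu1-1D and 35S-GDU5, 2 in 35S-GDU2, 1 in 35S-GDU6 and 0 in the libraries labelled 35S-GDU4 and at 25 h, and 1 was called higher at 7 h. With RBCS1A included, the sum of the 4 genes stood above Col in 35S-GDU2 (34930 against 15657 FPKM), 35S-GDU6 (35454 against 15114) and 35S-GDU5 (23389 against 16760). It stood below Col in gdu1-1D (11820 against 16169 FPKM) and in the libraries labelled 35S-GDU4 (14070 against 15133). In Dex-GDU1 it was 8102 against 8147 FPKM in 4c-S7 at 7 h and 12450.6 against 12788.5 FPKM at 25 h. The summed level of 4 seed storage and oil body markers was at most 0.218 FPKM in the lines and 0.390 FPKM in the controls, and none was tested, while 3 flower markers summed to at most 2.31 FPKM in the lines and 1.39 FPKM in the controls, 2 root markers to at most 0.0316 and 0.0456 FPKM (both listed at 0 in Dex-GDU1 at 25 h, 35S-GDU5 and 35S-GDU6), and 2 phloem markers to 113 to 225 FPKM in the lines and 134 to 171 FPKM in the controls. Of the 2 phloem markers 1 was called higher at 7 h and 1 at 25 h, and both were called lower in 35S-GDU5. In gdu1-1D, 35S-GDU2 and 35S-GDU6 1 phloem marker was called higher and 1 lower. Of the flower markers 1 was called higher at 25 h, and 1 higher and 1 lower in 35S-GDU5. In gdu1-1D, 35S-GDU6 and the libraries labelled 35S-GDU4 1 flower marker was called lower. These counts are to be read against the shares of all tested genes given above. Markers of guard cells, the cells that close the leaf pores under drought, moved with several of the results: of 5, those called lower were 4 in Dex-GDU1 at 25 h, 3 in gdu1-1D, 4 in 35S-GDU2, 5 in 35S-GDU5 and 4 in 35S-GDU6, with 1 in the libraries labelled 35S-GDU4 and 0 at 7 h, and none was called higher. All tested genes were called lower at 21.6%, 21.4%, 10.2%, 26.5% and 23.9% in the first 5 of these and at 5.71% and 7.19% in the others. Their summed level was 64.9 FPKM in Dex-GDU1 at 25 h and 144 FPKM in 4c-S7, 143 FPKM in gdu1-1D, 101 in 35S-GDU2, 80.3 in 35S-GDU5 and 126 in 35S-GDU6, against 202 to 223 FPKM in Col, and no guard cell marker was at 0. In the controls 1 marker made up most of the sum, at 111 FPKM in 4c-S7 at 25 h and up to 179 FPKM in Col. The median log2 fold change of the 5 markers at 25 h was -0.47.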

How the data were processed

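RNA of whole leaves was sequenced as paired reads of 100 bases in 29 libraries, each in 2 runs. The 7 comparisons use 27 libraries in 10 groups, and the groups 35S-GDU1 and 35S-GDU3 (1 library each) were not analysed here. Per the submitters' processing notes, reads were processed with TopHat2, Cufflinks and Cuffdiff on TAIR10. Versions, annotation, filters and strand setting are not given in the sources used here. The authors deposited FPKM, per the file headers as 1 value for each gene and group, and the tables were normalised separately, so levels set across tables are descriptions. The p-value, the q-value and the score (Cuffdiff's test statistic) of each gene are the authors', deposited in the same tables. With 1 value per group the depth of a library is unknown, and no counting interval is given.

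Entries were matched by symbol, synonym or locus through the TAIR10.1 annotation, and positions are those of the tables counted from 1. The deposited log2 column has cells that are not numbers, so log2 fold changes were recomputed from FPKM. Fold changes of 2 tables were compared by a z test per gene, with SEs from the p-values and Benjamini-Hochberg adjustment over all genes tested in both, in Python 3.11.15 with numpy 2.4.6, pandas 2.3.3 and scipy 1.17.1. The calculation was tried on simulated differences with normal noise of these same SEs. That trial cannot say whether the recovered SEs or the normal shape hold for the data. Promoter windows come from the RefSeq TAIR10.1 genome.

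The 10 genes, the lists and the tests were chosen with earlier results of these data known. The text names all 10 genes in every comparison, the GDU gene of each label, called genes among the up to 4 of largest change per list and comparison (not each in every comparison), and the 5 genes nearest in pattern to the median of the tested members among those tested in all 7 tables with FPKM of at least 5 in a group. Genes without a symbol and entries that join several genes were left out of that ranking. HIRD11, AFP2, TMAC2, CLO4, EM1, EM6 and RBCS1A were named after their values were seen, as were values of a listed gene outside the comparison in which it ranked. Alternatives were a q of 0.01, a minimum of 1 FPKM, a minimum log2 change of 1 (plain, with 1 FPKM added, or centred on the median gene), readjustment over genes of at least 1 FPKM, leaving out the 1238 entries that join several genes, and, for the differences, other SEs. The second AFP1 entry was added as an alternative after seeing the data.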

Additional observations from a re-analysis of the deposited data

Results flagged for a closer look

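The change of 6 genes after dexamethasone differed between 25 h and 7 h by a test of the difference itself, the change at 25 h minus the change at 7 h on the log2 scale. The difference was 2.42 for RD29A, 2.22 for RAB18, 2.18 for XERO2, 3.57 for GolS2, 2.94 for RD20 and 1.36 for RD22, all larger at 25 h. The 2 times differ in the hour of the day as well as in the time since the spray. They also differ in how they lie to the 7 h under the humidity dome, and these cannot be told apart.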

How the results depend on the processing

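The number of called genes stayed within 1.5 times its main value in 54 alternative counts and moved further in 10. At 7 h the count of 2 became 1 at a q of 0.01 and 0 with a minimum absolute log2 fold change of 1, whether plain, with 1 FPKM added or centred. In the libraries labelled 35S-GDU4 the count of 2 became 1 at a q of 0.01, 1 with a minimum absolute log2 fold change of 1, 1 after centring and 0 with 1 FPKM added. The 0 calls between Dex-GDU1 at 25 h and gdu1-1D became 3 with SEs from the test statistic and 1 (XERO2) with 1 FPKM added. For single genes 441 alternative values kept direction and side of the threshold, 35 lost the call, 4 gained one and 0 reversed. The RD29A difference between times did not pass an adjusted p of 0.01. No paired analysis was possible because the tables hold 1 pooled value per group. Leaving out a library could not be done for the same reason, so the weight of any 1 library is unknown. LEA7 had no test in 5 comparisons, RD29B and AFP1 in 2 and GolS1 in 1, each under 1 FPKM in both groups there.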

Other observations

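Values of the second AFP1 entry, on the same stretch as the first, stood at 1.25 FPKM in 35S-GDU5 and 1.17 FPKM in 35S-GDU6, against 0.0109 and 0.0103 FPKM in Col, without a call. How the authors' counting divided reads between the 2 entries was not tested.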
